A study of Mus musculus with 20 samples.

Results

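Spon2 (ENSMUSG00000037379) encodes spondin 2, also called mindin, and is described here in the livers of mice fed a high-fat diet (HFD) and exposed to polychlorinated biphenyls (PCBs). It is 1 of the 21780 genes of the deposited count table and 1 of the 15522 genes with enough reads to be tested. It was chosen by its own values in 1 contrast, the fall from HFD control in mice given both PCB preparations that remained after a correction for GC content, so that contrast is given as a description, with no test. Male C57BL/6 mice, 8 weeks old at the start, were all fed HFD (42% of calories from fat) for 12 weeks and received 1 oral gavage after 2 weeks of the diet. The mice of the HFD control group received corn oil. HFD + Aroclor mice received Aroclor 1260 at 20 mg/kg, a commercial and mostly non-dioxin-like PCB mixture, and HFD + PCB 126 mice received PCB 126 at 20 µg/kg, a dioxin-like congener. HFD + Aroclor + PCB 126 mice, the combined exposure, received both at these doses. Each group has 5 sequenced livers. No group was fed another diet, so every value below is from a liver under HFD. The methods count 10 weeks between gavage and death, while the sample labels give 12 weeks of treatment. The mice were fasted for about 6 h before death, and the time of day of death is not given in the sources used here.

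Spondin 2 is a secreted protein of the extracellular matrix that belongs to the F-spondin family and carries a thrombospondin type 1 repeat. It binds bacterial surface molecules such as lipopolysaccharide (LPS), marks bacteria for uptake by phagocytes and is a ligand for integrins on immune cells. In mouse liver it has been studied in diet-induced steatosis, in connection with PPARα, the nuclear receptor that controls fatty acid oxidation. Dioxin-like congeners such as PCB 126 activate the aryl hydrocarbon receptor (AhR), which induces Cyp1a1 and Cyp1a2, and non-dioxin-like PCBs activate the receptors CAR and PXR, which induce Cyp2b10.

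Spon2 lies on the minus strand of chromosome 5 at 33198184 to 33218455 of GRCm38. GENCODE release M21 lists 5 transcripts, of which 2 are protein-coding and 3 retain an intron. The longer protein-coding transcript has 6 exons and 2045 nt. The lower end of the annotated span is set by a retained-intron transcript, and the longer coding transcript itself spans 33213927 to 33218455. No gene of the count table overlaps Spon2. The nearest counted genes are Slc5a1, 35314 bp away on one side, and Ctbp1, 29268 bp away on the other. The merged exons measure 2947 bp. The GC content, taken over all annotated transcript sequences of the gene together, is 55.5%. This is above the median of 50.2% and above that of 79.1% of tested genes.

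The unit of transcript level is CPM, a gene's reads scaled to a common library total, after TMM normalization, which scales each library for its depth and composition. Spon2 had 4239 reads in all, from 41 to 467 in a library, so counting error alone was 15.6% of the lowest count and 4.63% of the highest. In HFD control livers it stood at 3.70 ± 0.656 CPM per kb of exon (SD, n = 5), above 64.8% of tested genes on this scale. Its biological coefficient of variation between mice of the same group was 0.296, against a median of 0.205 over all tested genes.

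In the 5 HFD control livers the Spon2 level was 12.2, 8.33, 9.53, 11.4 and 13.03 CPM (replicates 1 to 5). In HFD + Aroclor livers it was 6.45, 5.69, 13.1, 10.7 and 12.1 CPM. These 5 mice fell apart, with replicates 1 and 2 below every control and the other 3 within or just above the control range. In HFD + PCB 126 livers it was 4.47, 3.87, 6.03, 4.73 and 3.90 CPM, all lower than the lowest control. In HFD + Aroclor + PCB 126 livers it was 2.86, 2.26, 5.14, 1.49 and 1.92 CPM. Of these 5 mice, 4 were below every other mouse of the study, and replicate 3 lay within the PCB 126 range. The group means ran from 10.9 ± 1.93 CPM in HFD control through 9.62 ± 3.37 with Aroclor and 4.60 ± 0.879 with PCB 126 to 2.73 ± 1.44 with the combined exposure (SD, n = 5 each). In whole liver, fewer cells that express Spon2 and less Spon2 RNA per cell cannot be told apart.

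**Figure D1:**
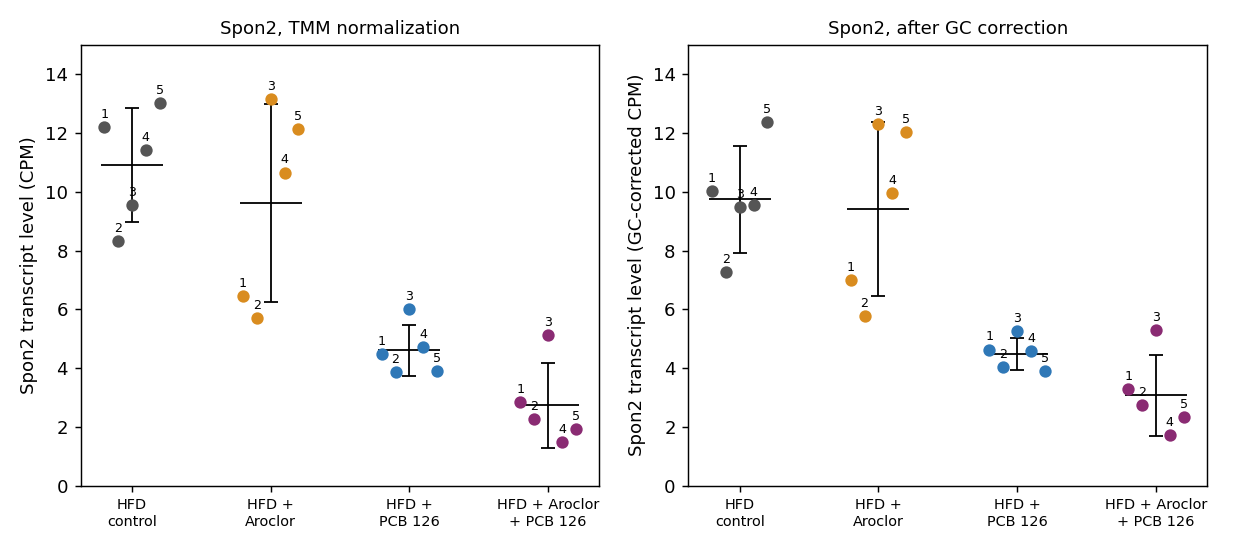
Spon2 transcript level in each of the 20 livers by group, in CPM after TMM normalization (left) and in CPM after GC correction (right). Points are mice with their replicate number, and horizontal lines and bars are the group mean and SD. Every PCB 126 and combined-exposure mouse sits below the lowest control in both panels, and combined-exposure replicate 3 stands above the other 4 mice of its group.

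The libraries differed in how strongly a read count depended on the GC content of the gene, and this moved with the groups. The GC slope, the change of log2 level for each 10 percentage points of GC relative to the mean library, was 0.254 ± 0.136 in HFD control, -0.0016 ± 0.0781 with Aroclor, 0.114 ± 0.206 with PCB 126 and -0.366 ± 0.171 with the combined exposure (SD, n = 5 each). All 5 combined-exposure libraries had a lower slope than the 5 controls (exact permutation test, two-sided, p = 0.00794, the smallest that 5 mice against 5 allow). At the GC content of Spon2, the trend over all genes was on average 0.163 ± 0.118 above the mean library in HFD control and -0.203 ± 0.0952 from it with the combined exposure, on the log2 scale. Within the combined-exposure group the mice had the same order in Spon2 as in GC slope, from replicate 4 (slope -0.575) up through replicates 5, 2 and 1 to replicate 3 (slope -0.133). That order also held for the GC-corrected level, so the correction did not remove it. Across the PCB 126 mice the slopes ran from -0.107 to 0.384, a range that includes the control slopes of 4 of 5 mice, and Spon2 was low in all of them. The part of the GC slope in the Spon2 values beyond the correction was not tested.

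**Figure D2:**
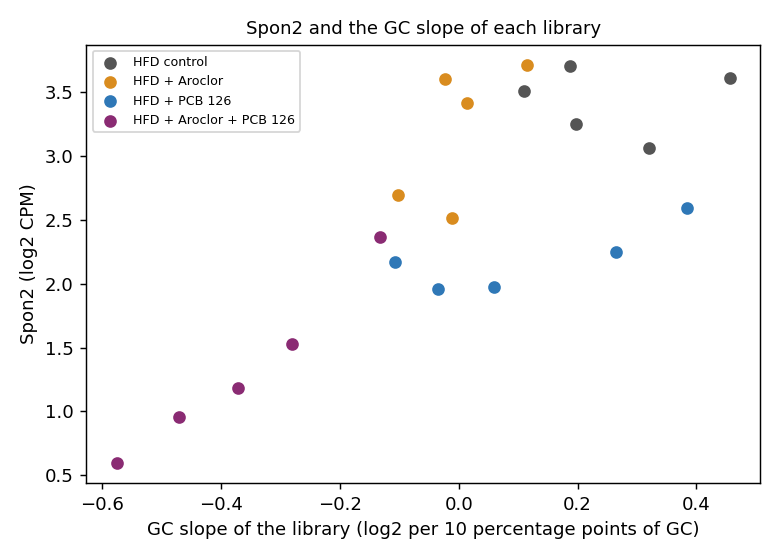
Spon2 level (log2 CPM, vertical axis) against the GC slope of the library (log2 per 10 percentage points of GC, horizontal axis), with 1 point per mouse and a colour for each group. The 5 combined-exposure mice line up by slope from -0.575 to -0.133, while the PCB 126 mice lie below the controls at overlapping slopes.

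After removal of the GC trend, the Spon2 level was 10.01, 7.28, 9.47, 9.56 and 12.4 CPM in HFD control livers. It was 6.99, 5.77, 12.3, 9.97 and 12.0 CPM with Aroclor. It was 4.63, 4.03, 5.26, 4.59 and 3.89 CPM with PCB 126, which no longer overlapped the Aroclor group. It was 3.28, 2.73, 5.31, 1.73 and 2.34 CPM with the combined exposure, where replicate 3 was now just above the highest PCB 126 mouse. The order of the group means was the same as before the correction, at 9.74 ± 1.82, 9.42 ± 2.95, 4.48 ± 0.549 and 3.08 ± 1.37 CPM (SD, n = 5 each).

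The contrast that chose the gene was the combined exposure against HFD control. Spon2 was lower by a log2FC of -1.99 (SE 0.283), or 25.2% of the control level, and after GC correction by a log2FC of -1.65 (SE 0.246), or 31.9%. These values describe the choice and support nothing further. In this contrast edgeR's quasi-likelihood test, at an adjusted p under 0.05, called 32.8% of tested genes before GC correction (15.8% higher and 17% lower) and 2.78% after it (1.31% higher and 1.48% lower). The 432 genes called after it became 75 without combined-exposure replicate 5 and 983 without control replicate 4. The ranges of the groups did not overlap for Spon2, as was so in the lower direction for 8.14% of tested genes before GC correction and for 2.2% after it. When the fit held the libraries' GC slopes as a covariate, the log2FC was -0.95 (SE 0.401). The slopes of the combined-exposure and control libraries do not overlap, so that fit cannot separate GC slope from exposure.

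PCB 126 and Aroclor were compared in mice that took no part in the choice of the gene. Spon2 was at 47.8% of its Aroclor level in PCB 126 mice, a log2FC of -1.06 (SE 0.272, 95% confidence interval -1.63 to -0.50). In the test across all genes this did not pass the threshold (edgeR, adjusted p = 0.237), and 0.0258% of tested genes did. GC correction gave a log2FC of -1.07 (SE 0.237, edgeR adjusted p = 0.181), with 0.0193% of genes called. It passed with DESeq2 (adjusted p = 0.0448) and with the slope covariate in edgeR (adjusted p = 0.0495). As a single value, the mean log2 CPM was 2.19 with PCB 126 and 3.19 with Aroclor (exact permutation test, two-sided, p = 0.0159). After GC correction the means were 2.16 and 3.18 (exact permutation test, p = 0.00794, the smallest this design allows). The ranges overlapped before GC correction through PCB 126 replicate 3 and Aroclor replicate 2. After it they did not, which in the lower direction was so for 0.638% of tested genes.

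Each single exposure was also compared with HFD control. The control mice are those of the contrast that chose the gene, and that choice favours a high level in them, so these p-values lean low. With PCB 126, Spon2 was at 42.3% of the control level, a log2FC of -1.24 (SE 0.273, 95% confidence interval -1.81 to -0.68). This lay just outside the threshold (edgeR, adjusted p = 0.0548), and also after GC correction, with a log2FC of -1.12 (SE 0.238, edgeR adjusted p = 0.0536). The share of tested genes called in this comparison was 0.116% before GC correction and 0.174% after it. All 5 PCB 126 mice were below all 5 controls, and this was so for 0.908% of tested genes, or 0.541% after GC correction. DESeq2 and several other settings brought the adjusted p of Spon2 under the threshold. With Aroclor alone, Spon2 had a log2FC of -0.18 (SE 0.264, 95% confidence interval -0.73 to 0.37, edgeR adjusted p = 0.733). After GC correction the log2FC was -0.05 (SE 0.231, edgeR adjusted p = 0.96), and with the GC slope as a covariate it was 0.25. edgeR called 0% of genes in this comparison, with 2677 genes at an unadjusted p under 0.05, and DESeq2 called 135.

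The combined exposure was also set against each single exposure. The combined-exposure mice are those whose low Spon2 chose the gene, so these differences are descriptions, with no test of Spon2. Against Aroclor, Spon2 had a log2FC of -1.81 (SE 0.282), or 28.5% of the Aroclor level, and -1.61 (SE 0.246) after GC correction. The difference was -1.20 with the GC slope as a covariate, and -2.20 to -1.67 before GC correction with any 1 of the 10 mice left out. Every combined-exposure mouse was below every Aroclor mouse, as was so for 4.17% of tested genes, or 1.21% after GC correction. Over all genes, this comparison called 0.412% before the correction (0.309% lower) and 0.0129% after it. Against PCB 126, Spon2 had a log2FC of -0.75 (SE 0.283), and of -0.53 (SE 0.248) after GC correction. Of the 5 combined-exposure mice 4 lay below every PCB 126 mouse in both scales, and with the slope covariate the log2FC turned to 0.055. The combined-exposure slopes (-0.575 to -0.133) lay below every slope of the other groups (lowest -0.107). The slope covariate therefore cannot separate GC slope from the combined exposure. Over all genes, this comparison called 16.7% before GC correction and 0% after it, with 2952 at an unadjusted p under 0.05 after it. These shares rested on single mice, since without PCB 126 replicate 3 edgeR called 4 genes before the correction and without PCB 126 replicate 1 it called 245 after it.

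The log2FC of the combined exposure can also be set against the log2FC values of Aroclor and PCB 126 added together. The difference for Spon2 was -0.57 (SE 0.387), and -0.49 (SE 0.338) after GC correction. No test is given, because this difference contains the contrast that chose the gene.

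**Figure D3:**
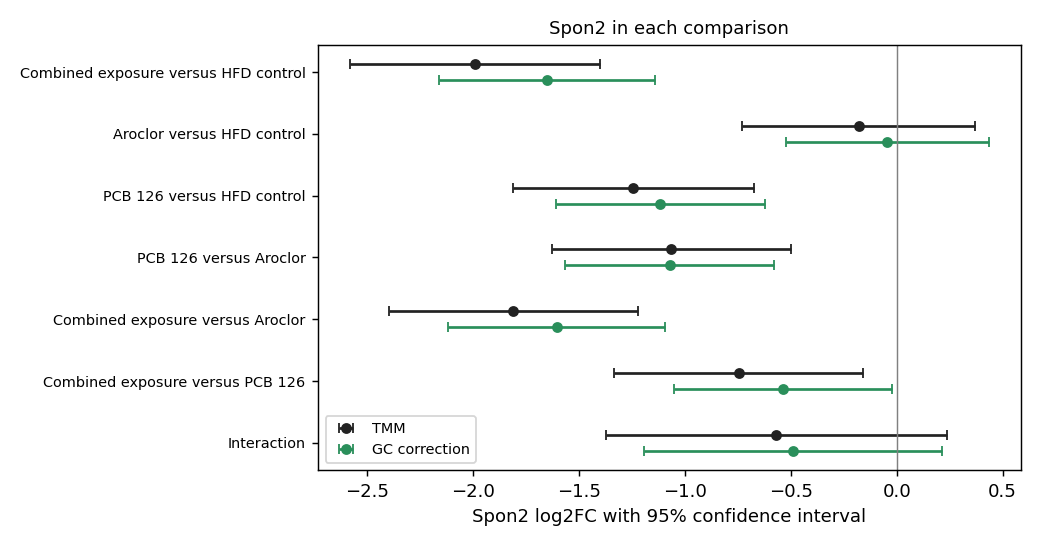
Spon2 log2FC in the 6 pairwise comparisons and the interaction, with 95% confidence intervals from the edgeR fit across 20 livers, after TMM normalization (black) and after GC correction (green). The 4 comparisons of a group given PCB 126 with a group not given it lie at -1.06 to -1.99 before GC correction. Aroclor against control lies at -0.18. The combined group against control is the contrast that chose the gene, and only PCB 126 against Aroclor shares no mice with it. The intervals take no account of that choice, and those of the combined exposure and the interaction are not read as tests.

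The labels of exposure were set beside the genes that the receptors induce. Of 6 AhR markers, 2 were called higher and 4 not called with PCB 126, where 0.116% of tested genes were called. The lowest of the 6 had a log2FC of -0.88. Of 4 CAR and PXR markers, 0 were called with Aroclor, where 0% of tested genes were called. These counts are before GC correction. Cyp1a2 was at 387 CPM in HFD control, 385 CPM with Aroclor, 1590 CPM with PCB 126 and 775 CPM with the combined exposure. It rose with PCB 126 by a log2FC of 2.04 (SE 0.237, edgeR adjusted p = 0.000294) and with the combined exposure by 1.00 (SE 0.231, edgeR adjusted p = 0.00325). The rise with the combined exposure was 1.09 after GC correction (edgeR, adjusted p = 0.0287). Its call was lost with the slope covariate, where the log2FC was larger, at 1.37, and so was its SE, at 0.451 (edgeR, adjusted p = 0.175). With GC correction and 1 mouse left out, it held in 5 of 10 fits (edgeR, adjusted p of up to 0.0842). Cyp1a1 was at 4.09, 7.80, 4.60, 314 and 62.1 CPM in the PCB 126 mice, against 0.219 to 0.940 CPM in controls. In combined-exposure mice Cyp1a1 was at 0.792, 1.19, 0.875, 1.13 and 2.62 CPM, below every PCB 126 mouse, although these mice received the same dose of PCB 126. Cyp2b10 had a median of 2.33 CPM in controls, 14.0 with Aroclor, 4.01 with PCB 126 and 11.9 with the combined exposure. Its range with Aroclor (2.89 to 30.7 CPM) overlapped that of the controls (0.351 to 6.62 CPM). Within the PCB 126 group, the mice at 314 and 62.1 CPM of Cyp1a1 had 4.73 and 3.90 CPM of Spon2. The other 3 had 3.87 to 6.03 CPM. After GC correction these 2 mice had 4.59 and 3.89 CPM of Spon2, the latter the lowest of the group. A relation of Spon2 to Cyp1a1 was not tested. Combined-exposure replicate 3, with the highest Spon2 of its group, had the lowest Cyp1a2 (537 CPM) and the lowest Cyp2b10 (1.43 CPM) of that group.

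**Figure D4:**
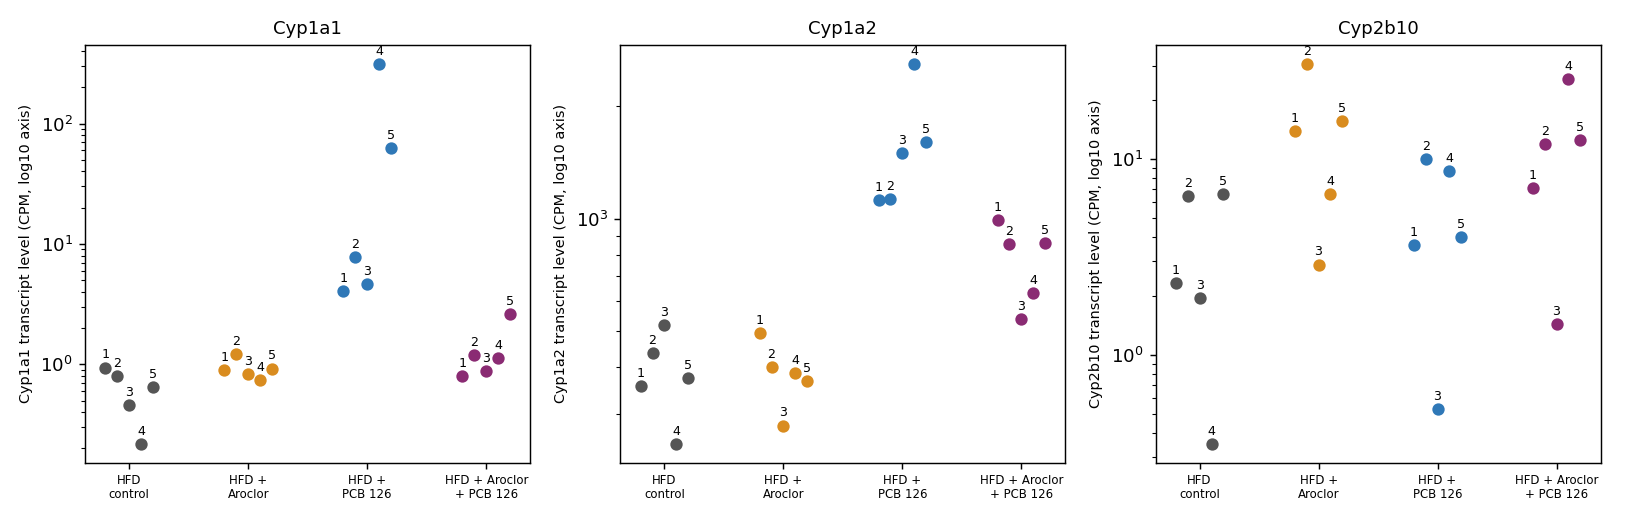
Cyp1a1, Cyp1a2 and Cyp2b10 transcript levels in each of the 20 livers by group (CPM, log10 axes), with the replicate number above each point. Cyp1a2 is above the controls in every mouse given PCB 126, while Cyp1a1 in the combined group reaches 2.62 CPM at most, below the 4.09 CPM of the lowest PCB 126 mouse.

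The genes around Spon2 and the proteins related to it in structure or function were counted as lists. None of the 10 tested genes nearest to it on chromosome 5 was called with PCB 126 or with Aroclor. Of all tested genes, 0.116% and 0% were called in these comparisons before GC correction. With the combined exposure, 2 were called higher and 3 lower before GC correction and 0 after it, in a comparison where 32.8% and 2.78% of all tested genes were called. Slc5a1, the intestinal-type glucose transporter, had a log2FC of 0.11 and Ctbp1, a transcriptional corepressor, of 0.15 after GC correction, neither past the threshold. Among 19 secreted proteins with thrombospondin type 1 repeats, the combined exposure called 1 higher and 1 lower before GC correction and 1 higher after it, again beside 32.8% and 2.78% of all tested genes. That 1 was Adamtsl4, a protein of the fibrillin network, with a log2FC of 0.67 after the correction and 0.01 before it. Its call was lost with the slope covariate, at a log2FC of 0.61 (SE 0.2865, edgeR adjusted p = 0.469). It was also lost without combined-exposure replicate 2, 4 or 5 or control replicate 1 or 5 (edgeR, adjusted p of up to 0.0887). The median of this list was -0.07 after GC correction, beside -0.03 over all tested genes. Spon1, the closest relative by name, had 1.32, 1.34, 0.865 and 1.64 CPM in the 4 groups in the order above and was not called in any. Thbs1, encoding thrombospondin 1, had 5.16 ± 5.03, 3.44 ± 0.918, 1.66 ± 0.429 and 2.72 ± 0.486 CPM (SD, n = 5), and its log2FC with PCB 126 of -1.62 did not pass the threshold (edgeR, adjusted p = 0.153).

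The partners of spondin 2 were read against the same shares of 32.8% before GC correction and 2.78% after it. Of 5 integrin subunits reported as receptors or found on its target cells, 2 were called higher and 1 lower with the combined exposure before GC correction, and 0 after it. Itgam and Itgb2, which form the complement receptor of phagocytes, had log2FC values of 0.27 and 0.37 after the correction. Of 13 genes of LPS sensing, 1 was called higher and 3 lower before the correction. After it 1 was called, Irak1, a kinase of Toll-like receptor signalling, with a log2FC of 0.48 after the correction and 0.07 before it. Its call was lost without combined-exposure replicate 1, 2 or 5 or control replicate 1 or 2 (edgeR, adjusted p of up to 0.0868) and with the slope covariate (edgeR, adjusted p = 0.893). Tlr4, the LPS receptor, was at 1.28 CPM in HFD control and 2.29 CPM with the combined exposure, and Cd14, its coreceptor, at 2.74 and 2.43 CPM, neither past the threshold after GC correction. The lists' medians after GC correction were 0.27 for integrins and -0.01 for LPS sensing, beside -0.03 over all tested genes.

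Ppara itself was at 69.6, 114, 101 and 115 CPM in the 4 groups, with a log2FC of 0.81 for the combined exposure after GC correction that did not pass the threshold (edgeR, adjusted p = 0.131). Of 18 PPARα targets, 2 were called higher and 3 lower with the combined exposure before the correction and 0 after it, with a median log2FC of -0.04 after it and a share before it near the 32.8% of all tested genes. Of 16 liver matrix proteins, 4 were called higher and 3 lower before the correction, where 32.8% of all tested genes were called, and 0 after it, where 2.78% were, with a median of 0.12. In PCB 126 mice 0 of the 77 genes of these and the CAR and PXR lists passed the threshold, in a comparison where 0.116% of tested genes did.

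Markers of the cell types of liver were compared as a check on tissue content, since Spon2 is measured in bulk RNA. The 6 hepatocyte markers summed to between 86063 and 121914 CPM over the 20 livers. Of 67 markers of 10 cell types 65 were tested, and after GC correction 1 was called with the combined exposure, the hepatocyte marker Ttr, which was lower. Before the correction 6 were called higher and 5 lower. All tested genes were called at 2.78% after the correction and 32.8% before it. No marker was called with PCB 126 or with Aroclor, where 0.116% and 0% of all tested genes were called before GC correction. The 9 macrophage and Kupffer cell markers summed to a median of 339 CPM in HFD control, 404 with Aroclor, 330 with PCB 126 and 330 with the combined exposure. The 9 natural killer cell markers summed to medians of 3.10, 4.18, 3.54 and 5.45 CPM, and the 9 stellate cell and fibroblast markers to 170, 207, 146 and 188 CPM. The 4 adipocyte markers summed to 50.7 to 249 CPM in controls and 56.5 to 92.1 CPM with the combined exposure. Before GC correction, the stellate cell and fibroblast sum of every combined-exposure mouse (178 to 216 CPM) was above the controls (106 to 178 CPM). At the low end the gap was less than 1 CPM. The members did not all move the same way. Of the 9, 3 were called higher and 1 lower before GC correction, and 0 after it. Des had means of 6.02 CPM in controls and 2.29 CPM with the combined exposure. No summed list separated PCB 126 mice from controls. No marker list was at 0 in any group, and the part of cell composition in the Spon2 values was not tested.

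The genes whose pattern was most like that of Spon2 were ranked by the Pearson correlation of GC-corrected log2 CPM over the 20 livers, among 11341 genes with a mean of at least 1 CPM. These values share libraries and groups, so they describe likeness only. Nr1d1, encoding the clock repressor REV-ERBα, came first (r = 0.93) and was the only gene above 0.9. It also came first before GC correction (r = 0.95). Among the next genes were Mrnip (0.85), a DNA repair factor, Elovl5 (0.84), a fatty acid elongase, and Camk1d (0.83), a calcium-dependent kinase. They also held Abcb11 (0.83), the bile salt export pump, 1810013L24Rik (0.83), Ino80e (0.82), a subunit of a chromatin remodeller, Stra6l (0.82), a receptor for retinol-binding protein, and Tnip1 (0.82), an inhibitor of NF-κB signalling. Of the first 10 genes, 4 were also among the first 10 before GC correction, a list led by Nr1d1, Cdc42se1, Col4a2, Tnip1 and Nfkb2. When each value was taken as its deviation from its group mean, 1 of the 10 was shared, Tnip1. That list was led by Osgin1, Cops7b, Khdc4, Fam131c and Tmem43. Genes with r over 0.8 numbered 225 before GC correction and 16 after it. Nr1d1, Mrnip, Ino80e, Cdc42se1, Col4a2 and Nfkb2 overlap genes on the other strand in the annotation, and the strand setting of the read counting is not given in the sources used here, so their levels are uncertain.

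Nr1d1 stood at 70.3, 62.2, 66.1, 61.0 and 71.3 CPM in HFD control livers. It was 38.4, 32.8, 53.9, 68.8 and 66.5 CPM with Aroclor, so the same 2 mice that were low in Spon2 were lowest in Nr1d1. It was 23.5, 16.0, 40.1, 34.4 and 32.1 CPM with PCB 126, and replicate 3 was again the highest. It was 17.9, 21.3, 26.8, 10.03 and 15.2 CPM with the combined exposure, where replicate 3 was the highest and replicate 4 the lowest for both genes. These CPM are before GC correction, and the GC content of Nr1d1 (56.6%) is near that of Spon2 (55.5%). Replicate 3 had the highest GC slope of the PCB 126 group (0.384) and of the combined-exposure group (-0.133), where replicate 4 had the lowest (-0.575). As deviations from group means of GC-corrected log2 CPM, the correlation of Nr1d1 with Spon2 was 0.72. This was below the first 10 genes of that ranking, from Osgin1 (0.89) to Tnip1 (0.78). The part of the GC slope in this likeness was not tested.

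**Figure D5:**
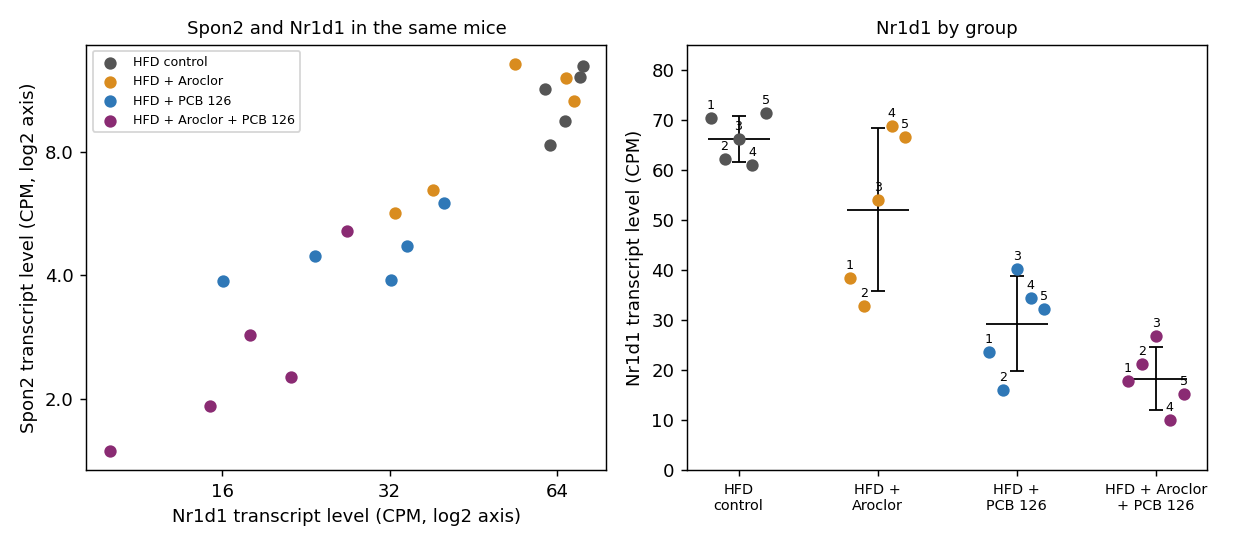
Left, Spon2 against Nr1d1 in the same 20 livers (CPM on log2 axes, 1 point per mouse, a colour for each group); right, Nr1d1 in CPM by group with replicate numbers, mean and SD. The Aroclor mice split into 2 at 32.8 and 38.4 CPM of Nr1d1 and 3 at 53.9 to 68.8 CPM, as they do in Spon2.

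Because Nr1d1 led this ranking, 17 clock genes were then looked at, a list added after that value was seen and given without tests. Correlations with Spon2 in GC-corrected log2 CPM over the 20 livers were over 0.5 for 3 of them and under -0.5 for 3. Besides Nr1d1, Npas2 (r = 0.76), encoding a partner of BMAL1, had means of 0.645, 0.373, 0.139 and 0.0862 CPM in HFD control, Aroclor, PCB 126 and combined-exposure mice. These means are below the 1 CPM minimum of the ranking, with 0.0331 CPM in the lowest PCB 126 mouse, so its r is uncertain. Bhlhe41 (0.69) had means of 12.0, 10.6, 6.89 and 6.42 CPM. Cry1 (-0.82), a repressor of the clock, had means of 4.68, 5.48, 8.45 and 12.7 CPM. The others under -0.5 were Per2 (-0.64) and Per3 (-0.53). As deviations from group means, r was 0.34 for Npas2, 0.16 for Bhlhe41 and -0.39 for Cry1. The remaining members lay between these limits. Arntl, encoding the core activator BMAL1, was at 2.72, 2.40, 2.32 and 2.95 CPM (r = 0.01), and Nr1d2, the paralog of Nr1d1, at 78.8, 104, 86.3 and 115 CPM (r = 0.00). Before GC correction, the scale of these CPM, r was -0.11 for Arntl and -0.47 for Nr1d2.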

How the data were processed

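Liver RNA-seq of 20 mice was analysed. The authors prepared stranded polyA libraries, aligned them with STAR 2.6 (GRCm38.p6) and obtained counts per Ensembl gene with HTSeq 0.10.0. The deposited values are these raw counts, before normalization. The annotation and strand setting of the counting are not given in the sources used here. Total counts per library were 21836506 to 36854887.

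The 15522 genes that reached 10 counts over all libraries were TMM-normalized and fitted in edgeR 4.0.16 (R 4.3.3) with 1 coefficient per group and 16 residual degrees of freedom. The quasi-likelihood test was two-sided, and p-values were adjusted by Benjamini-Hochberg across these genes. P-values measure the spread between mice. GC correction fitted a spline (6 degrees of freedom) through the log2 CPM deviations of all genes against their GC content in every library, and the fitted curve entered the model as an offset. Alternatives included DESeq2 1.42.0, the tool named in the authors' methods, other normalizations and filters, the GC slope as a covariate, and each mouse left out.

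Gene names, GC content and positions are from GENCODE M21. The genes named are Spon2, the members of the lists, the 5 tested genes nearest on either side, and the 10 genes most like Spon2, of which 9 are named and 1 is not reported here. Spon2 and the lists were chosen with earlier results of these data known. The clock genes were added after Nr1d1 was seen. The label of PCB 126 replicate 2 also holds a different number, and its title was followed. Proteome and RNA modification data were not analysed here.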

Additional observations from a re-analysis of the deposited data

Results flagged for a closer look

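In 48 sets of 5 mice (12 measures in 4 groups), 4 held a mouse far from the other 4 of its group, its gap to the nearest being over 0.71 of the range; chance gives such a gap in about 1 in 20 sets. None was a Spon2 value. Mrnip was at 8.61 CPM in HFD + PCB 126 replicate 3, the mouse with the highest Spon2 of that group, against 4.29 to 5.48 CPM. Bhlhe41 was at 16.3 CPM in HFD + Aroclor replicate 3, the mouse with the highest Spon2 of that group, against 7.95 to 10.02 CPM. Cyp1a1 was at 314 CPM in HFD + PCB 126 replicate 4, against 4.09 to 62.1 CPM, and at 2.62 CPM in HFD + Aroclor + PCB 126 replicate 5, against 0.792 to 1.19 CPM.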

How the results depend on the processing

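Spon2 values are log2FC, with adjusted p from edgeR unless DESeq2 is named. With the GC slope as a covariate they became 0.25 for Aroclor against control, -1.20 for the combined exposure against Aroclor, -0.95 against control and 0.055 against PCB 126, and -1.26 (adjusted p = 0.0495) for PCB 126 against Aroclor and -1.01 (adjusted p = 0.0182) against control. The combined-exposure slopes do not overlap those of the other groups, so this covariate cannot separate GC slope from the combined exposure. DESeq2 gave -0.76 for the combined exposure against PCB 126, -1.04 (adjusted p = 0.0448) for PCB 126 against Aroclor and -1.25 (adjusted p = 0.00217) against control. The difference of mean log2 CPM in the exact permutation test was -1.001. PCB 126 against control also passed with filterByExpr (-1.25), an FPKM filter (-1.26), GC and length correction (-1.12) and only the groups compared (-1.24), a fit in which the combined exposure against Aroclor was at -1.80. In each of these settings the cause was not tested.

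With each mouse left out in turn, Spon2 lay at -1.36 to -1.17 for PCB 126 against control (past the threshold in 1 of 10 fits, without PCB 126 replicate 3), -2.20 to -1.67 for the combined exposure against Aroclor, -1.14 to -0.63 against PCB 126 (-1.14 without combined replicate 3), -2.37 to -1.88 against control and -0.32 to -0.04 for Aroclor against control. The same fits with GC correction, added after seeing the data, gave -1.21 to -1.02 (past the threshold without PCB 126 replicate 3 or control replicate 3), -1.91 to -1.45, -0.84 to -0.38, -1.96 to -1.50 and -0.16 to 0.089.

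The labels do not say that a replicate number marks a shared animal or batch, so the numbers were not taken to pair the mice. Some same-number libraries deviated together and others did not, and a batch behind the numbers was not tested. Correlations of same-number deviations were -0.274 to 0.773 (median 0.0748, against -0.0142 for other numbers), and for 10 of 20 libraries the closest library of another group had the same number. With the replicate number as a block, Spon2 was at -0.79 for the combined exposure against PCB 126 and passed for PCB 126 against control (-1.27, adjusted p = 0.02, or -1.12 with GC correction).

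Counts of called genes moved more than Spon2 did. For the combined exposure against control they were 5089 (3894 to 5679 with 1 mouse left out), and 432 (75 to 983), 380, 633 and 286 with GC correction, with length added, with the block added and with the slope covariate. Against Aroclor they were 64, with 0 to 1343 over the alternatives and 0 to 1036 with 1 mouse left out. Against PCB 126 they were 2589 (4 to 3416), and 0 (0 to 245) with GC correction. For PCB 126 they were 18 against control (4 to 617, and 4 to 127 with 1 mouse left out) and 4 against Aroclor (2 to 64, and 1 to 15), and for Aroclor against control 0 (135 with DESeq2, 410 with the slope covariate, 26 with the block). Adamtsl4 with the combined exposure, near 0 before GC correction, was -0.019 with DESeq2, -0.0080 with only the groups compared, -0.0062 with RLE, -0.021 with upper-quartile normalization and -0.074 to 0.080 with a mouse left out (0.60 to 0.76 with GC correction). Spon2 had 41 to 147 reads in the combined-exposure livers, which limits the precision there.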
